A study of Arabidopsis thaliana with 8 samples.

Results

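Dehydrins are a family of hydrophilic, largely unstructured proteins that plants accumulate in drying seeds and in tissues exposed to drought, cold or salt. The 7 Arabidopsis thaliana dehydrin genes described here were taken by gene identifier from a table of 27655 genes: RAB18 (AT5G66400), ERD10 (AT1G20450), COR47 (AT1G20440), ERD14 (AT1G76180), XERO1 (AT3G50980), XERO2 (AT3G50970, also called LTI30) and HIRD11 (AT1G54410). The set was chosen with earlier results of these data known, and all 7 are described whatever their values. The study measured polyadenylated RNA of whole seedlings by stranded RNA-seq in 4 groups of 2 libraries, which the labels call biological replicates. All seedlings were of the Columbia ecotype, 7 days old, and grown at 22 °C with 16 h of light and 8 h of dark on a sucrose-containing medium. The groups were prp43a-1 after heat, prp43a-1 at control temperature, wild type after heat and wild type at control temperature, and heat meant 38 °C for 16 h. The prp43a-1 line carries a T-DNA insertion, and it is the only mutant line among these samples, so an effect of the insertion cannot be told apart from any other difference between that line and wild type. Prp43 is known from yeast as an RNA helicase that takes part in releasing the spliceosome from spliced introns and in ribosome assembly.

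All dehydrins share a lysine-rich segment, the K-segment, which can fold into a helix on membranes and partly denatured proteins, and the family is thought to protect both when water is withdrawn. A pair of control routes is textbook knowledge for the family. Abscisic acid, the hormone of drought, acts through ABF transcription factors that bind the abscisic acid response element (ABRE), and cold and dehydration act through CBF and DREB2 factors that bind the dehydration-responsive element (DRE). RAB18 takes its name from its response to abscisic acid, XERO2 from dryness, COR47 from cold, and ERD10 and ERD14 from early response to dehydration. ERD10 and ERD14 act as chaperones in vitro, and HIRD11 is a small histidine-rich dehydrin that binds metal ions.

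The genes lie at 5 places in the genome, given here in the coordinates of RefSeq's TAIR10.1 assembly. ERD10 (chr1:7087903-7089606) and COR47 (chr1:7084409-7086873) are neighbours on the minus strand with 1029 bases and no gene between them. XERO2 (chr3:18940643-18941611) and XERO1 (chr3:18941925-18942940) are neighbours on the plus strand, 313 bases apart. RAB18 (chr5:26518277-26519447), ERD14 (chr1:28586663-28587931) and HIRD11 (chr1:20309473-20310850) are on the minus strand. A small GTPase gene that also carries the symbol RAB18 (AT1G43890) is another gene and is not among the 7. The exons of RAB18 overlap those of the divergent gene AT5G66410 by 11 bases. No stretch of an exon as long as a read, 75 bases, recurs elsewhere in the genome for any of the 7 genes, and the longest run shared by a pair of them is 29 bases, between ERD10 and COR47.

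The sequence before each gene was searched on both strands for the core of the ABRE (ACGTG) and the core of the DRE (CCGAC), because these elements are what the family is known for. In the 250 bases before the annotated gene start, ACGTG was found in 22.9% of 27443 genes and CCGAC in 12%. RAB18 held 3 ACGTG cores and no CCGAC, and 2.99% of all genes held 3 or more ACGTG cores. That share counts a place where the core reads on both strands once for each strand. It can thus include genes with fewer than 3 separate places, while the 3 cores of RAB18 are separate. The RAB18 window lies wholly within the annotated first exon of the divergent neighbour AT5G66410, ahead of its coding sequence, so it is transcribed sequence of that gene as well. XERO2 held 3 CCGAC cores and no ACGTG, and 0.197% of all genes held 3 or more CCGAC cores. ERD14 and HIRD11 held 1 ACGTG core each, XERO1 held 1 place where the core reads on both strands, and the windows of ERD10 and COR47 held neither core. The stretches around the cores are shown 5′ to 3′ on the strand of the gene, from RefSeq's TAIR10.1 genome, with the core in capitals (CACGT and GTCGG are the cores read on the opposite strand).
RAB18, chr5:26519596-26519620, minus strand: acgacgatgtACGTGtgtatgaaaa
RAB18, chr5:26519544-26519568, minus strand: gaggagcattACGTGtcctgttagc
RAB18, chr5:26519451-26519475, minus strand: ttgatatgaaCACGTacttggtatc
ERD14, chr1:28588002-28588026, minus strand: gatatcagatCACGTaagcaaacta
HIRD11, chr1:20311077-20311101, minus strand: tatataatcaCACGTctgagttagt
XERO1, chr3:18941853-18941878, plus strand: acgtaatcgcCACGTGtgtcacttca
XERO2, chr3:18940443-18940642, plus strand: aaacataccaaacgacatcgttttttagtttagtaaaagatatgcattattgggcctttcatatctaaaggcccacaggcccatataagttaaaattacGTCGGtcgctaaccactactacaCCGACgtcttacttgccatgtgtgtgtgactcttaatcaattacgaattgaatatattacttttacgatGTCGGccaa
The paired units of the heat shock element, GAANNTTC and TTCNNGAA, were in none of the 7 windows, and were in 9.55% and 7.68% of all windows. A match is a description of the letters only, and a window without one says nothing of a factor's binding. The answer also depends on where the window ends: in the 250 bases before the coding start, where annotated leaders of up to 1209 bases (COR47) are taken in, RAB18 held 1 ACGTG and 1 CCGAC, and XERO2 held 1 of each. In that window GAANNTTC was found once in RAB18 and once in ERD10, and TTCNNGAA once in COR47, beside 11.6% and 9.51% of all such windows.

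**Figure D1:**
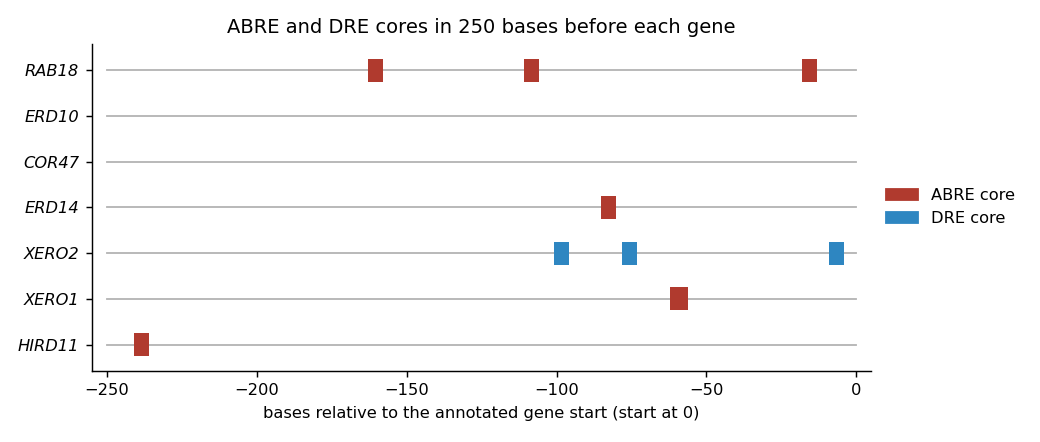
Places of the ABRE core and the DRE core in the 250 bases before the annotated start of each dehydrin gene; the x axis is the distance from the gene start in bases and each gene has a row. RAB18 holds 3 ABRE cores, XERO2 holds 3 DRE cores, and ERD10 and COR47 hold neither.

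Expression is given as TPM, a level scaled for transcript length and for the total of the library. From the steps in the low values, between 4071035 and 4783628 assigned reads per library could be recovered. Libraries of a group correlated at 0.983 to 0.985 across genes (Pearson's r of log2(TPM + 1)), libraries of the same temperature but different genotype at 0.976 to 0.985, and control with heated libraries at 0.743 to 0.767. The labels give no locus for prp43a, and of the 2 genes for Prp43-type helicases, AT3G62310 had 8.24 and 10.3 TPM in heated prp43a and 1.44 and 1.68 TPM in prp43a at control, against 64.6 and 72.4 TPM in heated wild type and 26.7 and 29.8 TPM in wild type at control. The other, AT2G47250, had 101 and 103 TPM in heated prp43a and 49.8 and 54.1 TPM in prp43a at control, against 90.1 and 98.4 TPM in heated wild type and 32.1 and 34.7 TPM in wild type at control. The tests below are limma's moderated test on log2(TPM + 1) with all 8 libraries in 1 fit, and a gene was called at a Benjamini-Hochberg adjusted p below 0.05 over the 19697 genes with at least 1 TPM in at least 2 libraries. That filter kept 6 of the 7 dehydrins and left out XERO1. Whole seedlings were measured, so fewer cells of a type and less RNA per cell cannot be told apart.

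HIRD11 and ERD14 were the most abundant dehydrins at control temperature, and XERO1 was close to undetected throughout. HIRD11 had 833 and 752 TPM in prp43a and 808 and 826 TPM in wild type at control. ERD14 followed, and ERD10 and COR47 came next with levels near 100 TPM. In wild type at control the order was HIRD11, ERD14, ERD10, COR47, RAB18, XERO2 and XERO1, and no pair of neighbours in it overlapped. In prp43a at control the order was the same apart from ERD10 and COR47, which overlapped.

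After heat the order was different and was the same in both genotypes: ERD14, ERD10, COR47, HIRD11, RAB18, XERO2 and XERO1, with COR47 and HIRD11 overlapping. The 7 levels summed to 1020 and 935 TPM in heated prp43a, 1260 and 1105 TPM in prp43a at control, 960 and 884 TPM in heated wild type, and 1468 and 1410 TPM in wild type at control. HIRD11 alone made up 19.8 ± 1.23% of that sum in heated prp43a and 67.1 ± 1.37% in prp43a at control, against 20.0 ± 1.70% in heated wild type and 56.8 ± 2.54% in wild type at control (SD, n = 2 each). The sum of the other 6 was 785 ± 60.4 TPM in heated prp43a and 390 ± 52.1 TPM in prp43a at control, against 738 ± 59.0 TPM in heated wild type and 622 ± 54.5 TPM in wild type at control (SD, n = 2 each). The heated groups were thus near each other in both the sum and its makeup, and prp43a at control had the lowest sum without HIRD11.

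**Figure D2:**
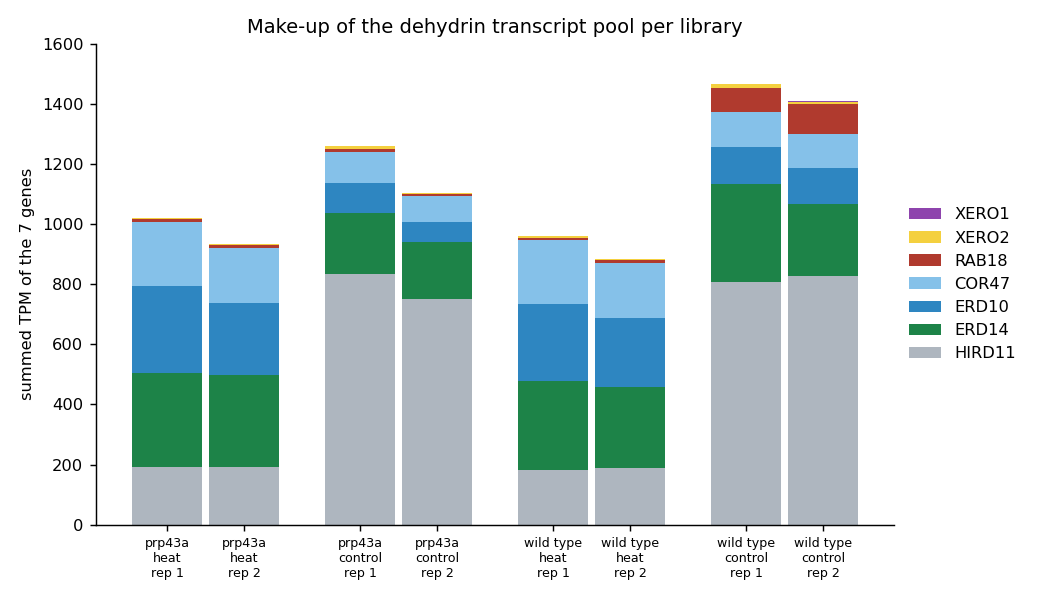
Summed TPM of the 7 dehydrins in each of the 8 libraries, stacked by gene. HIRD11 fills most of each control bar and about 20.0% of each heated bar. RAB18 makes up 5.41% and 7.23% of the bars of wild type at control and at most 1.10% of the other 6.

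The first question was what the mutant changes in unstressed seedlings. RAB18 had 11.7 and 7.91 TPM in prp43a, against 79.5 and 102 TPM in wild type, which is 38 and 24 recovered reads against 241 and 317. The groups lay far apart, with the wild-type mean 9.24 times the prp43a mean. RAB18 fell by 3.10 on the log2(TPM + 1) scale (95% interval -3.58 to -2.61, limma adjusted p = 6e-04). It was the only dehydrin called, 1 of 6 tested, where 0.0711% of all tested genes (14, each of them lower in prp43a) were called. The call was kept in 15 of 16 alternatives, and was lost when the fit held only the 4 control libraries (adjusted p = 0.28 with the same fold change).

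The acidic dehydrins lay lower in prp43a at control by less, and none was called. ERD10 had 100.5 and 65.4 TPM in prp43a, against 121 and 119.9 TPM in wild type (log2 fold change -0.57, SE 0.17, limma adjusted p = 0.35). COR47 had 104 and 86.2 TPM in prp43a, against 118 and 112 TPM in wild type (log2 fold change -0.27, SE 0.12, limma adjusted p = 0.54). ERD14 had 203 and 189.5 TPM in prp43a, against 327 and 242 TPM in wild type (log2 fold change -0.52, SE 0.13, limma adjusted p = 0.25). In all 3 genes both prp43a libraries lay below both wild-type libraries. Such separation was common, since 39.5% of all tested genes did not overlap, 17.9% lower in prp43a and 21.6% higher, so the 4 of 6 dehydrins that did so (these 3 and RAB18) are to be read against that share. Without wild-type control replicate 2, ERD14 was called as well (-0.73, limma adjusted p = 0.04).

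XERO2, a dehydrin of the K-segment-only type that binds membranes, was low and varied between replicates. It had 7.27 and 3.70 TPM in prp43a, against 15.2 and 6.51 TPM in wild type at control, and the groups overlapped (log2 fold change -0.82, SE 0.37, limma adjusted p = 0.56). HIRD11 overlapped too (log2 fold change -0.05, SE 0.08, limma adjusted p = 0.94). XERO1 had 0.469 and 0.502 TPM in prp43a, 1 read each, against 0 and 1.47 TPM in wild type, 0 and 3 reads, and no difference was detectable at this depth. The 6 tested dehydrins had a median log2 fold change of -0.54, all 6 below 0, beside a median of 0.01 over all tested genes.

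**Figure D3:**
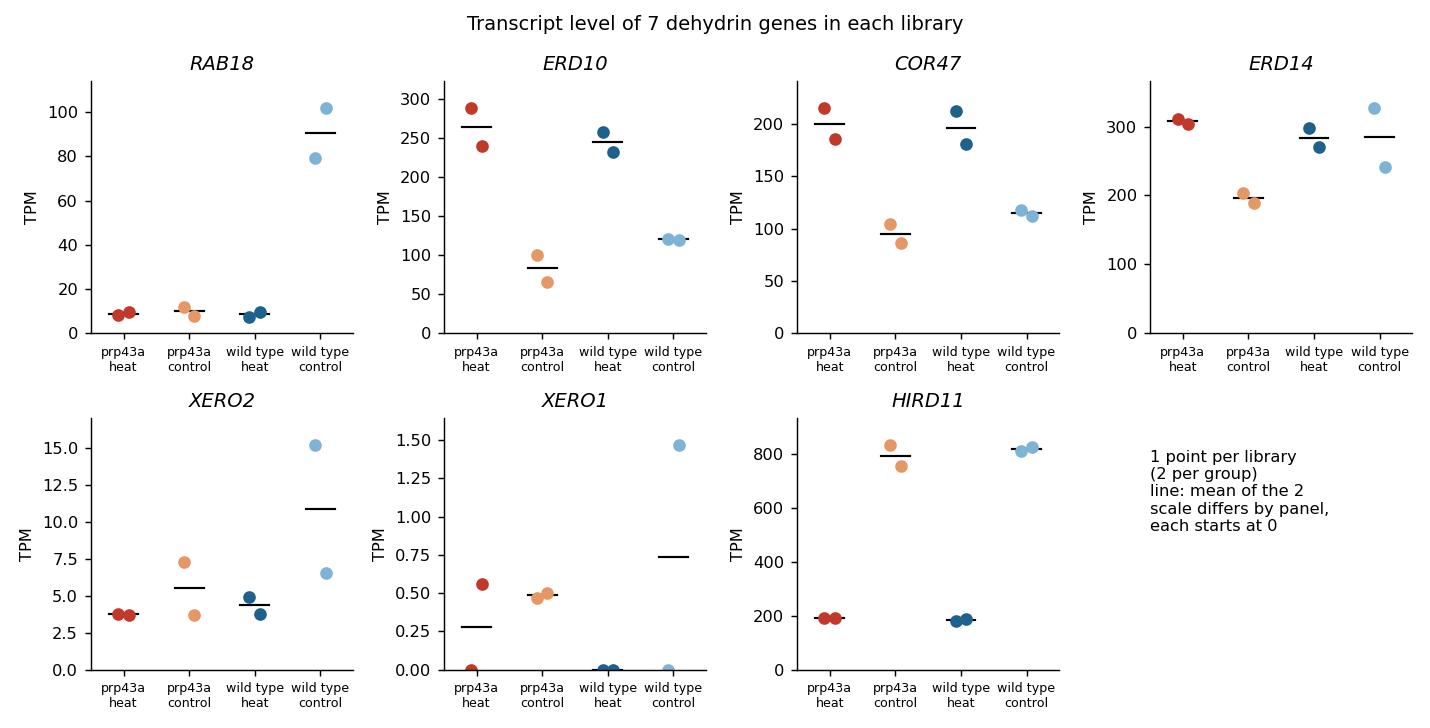
TPM of each of the 7 dehydrins in each library (1 point per library, line at the mean of 2), 1 panel per gene with its own y axis from 0. RAB18 is high only in wild type at control; HIRD11 is low in both heated groups, and ERD10 and COR47 are high there.

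After heat no dehydrin was called between the genotypes. RAB18 had 8.19 and 9.50 TPM in heated prp43a, against 7.04 and 9.75 TPM in heated wild type (log2 fold change 0.08, 95% interval -0.41 to 0.56, limma adjusted p = 1). These levels, and those of unheated prp43a, overlapped and all lay below 12 TPM. The other 5 tested dehydrins had log2 fold changes between -0.17 (XERO2) and 0.12 (ERD14). None of the 6 was called, and none had an unadjusted p below 0.05, where 0.00508% of all tested genes (1 gene) were called and 899 had an unadjusted p below 0.05. ERD14, XERO2 and HIRD11 did not overlap between the heated genotypes, nor did 30.3% of all tested genes. The sign of the difference for COR47 turned under median-of-ratios scaling (-0.01).

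Heat was compared with control within each genotype, and ERD10 and COR47 rose while HIRD11 fell in both. In heated prp43a, 4 of 6 dehydrins were called (ERD10, COR47 and ERD14 higher, HIRD11 lower), where 70.1% of all tested genes were called, 43.1% higher and 27.0% lower. In heated wild type 5 of 6 were called (ERD10 and COR47 higher, RAB18, XERO2 and HIRD11 lower), where 70.0% were, 42.4% higher and 27.6% lower. Both shares lie near their background. The groups did not overlap for ERD10, COR47, ERD14 (higher) and HIRD11 (lower) in prp43a, as for 85.8% of all tested genes (51.9% higher, 33.9% lower). In wild type they did not overlap for ERD10 and COR47 (higher) and RAB18, XERO2 and HIRD11 (lower), as for 83.9% of all tested genes (50.3% higher, 33.6% lower). The median of all tested genes lay at 0.28 in prp43a and 0.25 in wild type on the log2 scale, so each change below is to be read against that shift. Under median-of-ratios scaling the medians were -0.01 and 0.00, and the share of calls that were higher was 49.2% in place of 61.5% in prp43a and 49.6% in place of 60.5% in wild type.

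ERD10, which had the largest rise among the 6 tested dehydrins, had 288 and 239 TPM in heated prp43a against 100.5 and 65.4 TPM in prp43a at control. It had 257 and 232 TPM in heated wild type against 121 and 119.9 TPM in wild type at control. The heated libraries lay above the control libraries without overlap, and the heated mean was 3.18 times the control mean in prp43a (log2 fold change 1.68, SE 0.17, limma adjusted p = 1.1e-05) and 2.03 times in wild type (1.01, SE 0.17, limma adjusted p = 0.00041). COR47, its neighbour on the chromosome, had 215 and 185 TPM in heated prp43a against 104 and 86.2 TPM in prp43a at control. In wild type it had 212 and 181 TPM after heat and 118 and 112 TPM at control. COR47 rose by 1.07 in prp43a (SE 0.12, limma adjusted p = 2.4e-05) and by 0.77 in wild type (SE 0.12, limma adjusted p = 0.00025) on the log2 scale. Under median-of-ratios scaling both genes were still called higher, at 1.37 and 0.73 for ERD10 and 0.75 and 0.48 for COR47 in prp43a and wild type. Over the 8 libraries their levels correlated at 0.991 (Pearson's r of log2(TPM + 1), a description over points that share groups). The ratio of ERD10 to COR47 was 1.31 ± 0.0342 in heated prp43a and 0.862 ± 0.146 in prp43a at control, against 1.25 ± 0.0480 in heated wild type and 1.05 ± 0.0296 in wild type at control (SD, n = 2 each).

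HIRD11 had the widest heat difference in TPM among the 7 genes. It had 193.0 and 193.1 TPM in heated prp43a against 833 and 752 TPM in prp43a at control. It had 181 and 188 TPM in heated wild type against 808 and 826 TPM in wild type at control. The control mean was 4.10 times the heated mean in prp43a and 4.44 times in wild type, and HIRD11 fell by 2.03 in prp43a (SE 0.08, limma adjusted p = 1.6e-08) and fell by 2.14 in wild type (SE 0.08, limma adjusted p = 1e-08) on the log2 scale. Summed levels of 5 leaf markers, among them small-subunit Rubisco and chlorophyll-binding protein genes, moved the same way, at 16560 and 21226 TPM in heated prp43a and 59254 and 57906 TPM in prp43a at control, against 19688 and 19019 TPM in heated wild type and 60886 and 59076 TPM in wild type at control. Summed levels of 6 root markers did so too, at 271 and 324 TPM in heated prp43a and 1428 and 1263 TPM in prp43a at control, against 340 and 326 TPM in heated wild type and 1185 and 1202 TPM in wild type at control, with CASP1 at 0 in both heated prp43a libraries. That sum is carried by PYK10, a root beta-glucosidase, at 115 and 117 TPM in heated prp43a and 1298 and 1147 TPM in prp43a at control, against 151 and 107 TPM in heated wild type and 1075 and 1109 TPM in wild type at control. The root markers did not move as one: AGP31 was called higher with heat in both genotypes, at 132 and 183 TPM in heated prp43a against 60.0 and 51.1 TPM in prp43a at control, and SCR was not called in either. Their part in the fall of HIRD11 was not tested.

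ERD14 had 312 and 304 TPM in heated prp43a against 203 and 189.5 TPM in prp43a at control, 1.57 times the control mean. In wild type it had 298 and 270.2 TPM after heat and 327 and 242 TPM at control, which overlapped. ERD14 rose in prp43a (log2 fold change 0.65, SE 0.13, limma adjusted p = 0.0011) and was not called in wild type (0.01, limma adjusted p = 0.94). Relative to the median of all genes both values are smaller: under median-of-ratios scaling they were 0.33 (adjusted p = 0.051) and -0.27.

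RAB18 was lower after heat in wild type, with 7.04 and 9.75 TPM against 79.5 and 102 TPM at control, a control mean 10.8 times the heated mean. RAB18 fell by 3.29 on the log2 scale (SE 0.22, limma adjusted p = 5.2e-07), and all 16 alternatives called it. In prp43a it had 8.19 and 9.50 TPM after heat and 11.7 and 7.91 TPM at control, which overlapped (log2 fold change -0.12, limma adjusted p = 0.65). XERO2 had 4.90 and 3.78 TPM in heated wild type against 15.2 and 6.51 TPM in wild type at control, and fell by 1.05 on the log2 scale (SE 0.37, limma adjusted p = 0.027). That call rests on few reads, 13 and 10 against 41 and 18, and was kept in 9 of 16 alternatives. It was lost without any 1 of the 4 heated libraries (limma adjusted p between 0.056 and 0.14) and without wild-type control replicate 1, where the value was -0.50 (limma adjusted p = 0.26). In prp43a XERO2 had 3.76 and 3.70 TPM after heat and 7.27 and 3.70 TPM at control (log2 fold change -0.40, limma adjusted p = 0.35). XERO1 had 0 and 0.557 TPM after heat in prp43a, 0 and 1 read, and was listed at 0 in both heated wild-type libraries.

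**Figure D4:**
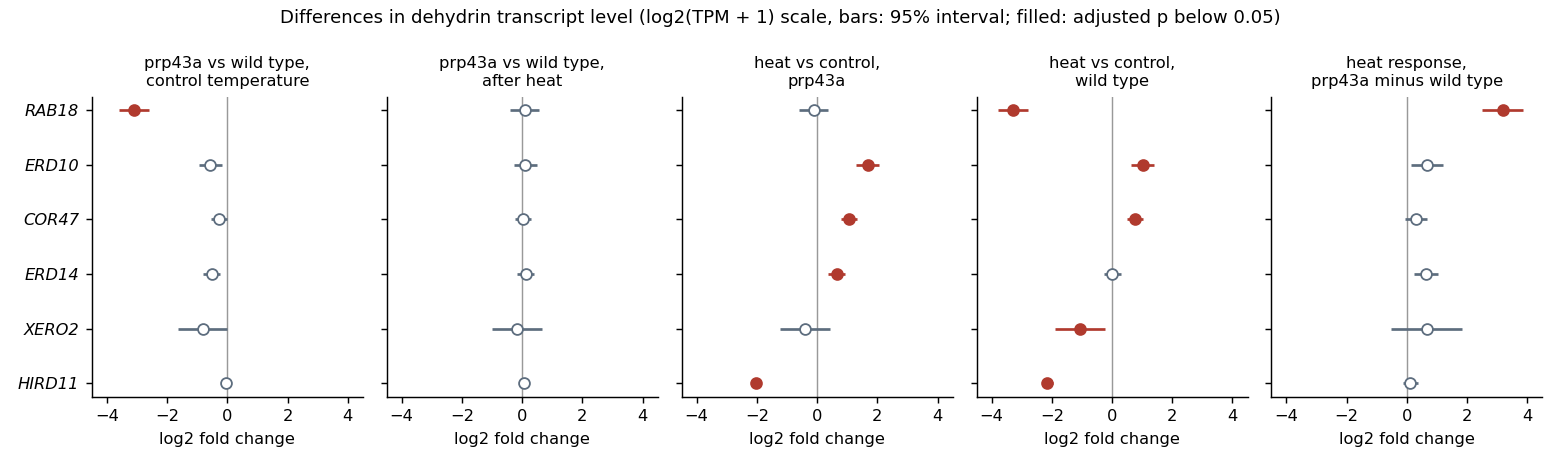
Log2 fold change on the log2(TPM + 1) scale with its 95% interval for the 6 tested dehydrins in each comparison; filled points have a limma adjusted p below 0.05. RAB18 is filled in the control comparison, in wild-type heat and in the difference of the heat responses, while HIRD11, ERD10 and COR47 are filled in both heat comparisons.

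Whether heat acted differently in the genotypes was tested as an interaction. With heat RAB18 changed by -0.12 in prp43a and by -3.29 in wild type on the log2 scale. The difference, prp43a minus wild type, was 3.18 (95% interval 2.49 to 3.86, SE 0.31, limma adjusted p = 0.013). RAB18 was the only one of 6 dehydrins called, where 0.0102% of all tested genes (2) were called, the other being RD29B. The size was between 2.75 and 3.43 in 15 alternatives, but the adjusted p passed 0.05 in only 5 of them. The call was lost whichever of the 8 libraries was left out (limma adjusted p between 0.063 and 0.34), with no filter on low values (adjusted p = 0.12) and with a pseudocount of 0.1 (adjusted p = 0.087). This test uses the wild-type control libraries that also enter the control comparison, and does not add to it as separate evidence. The other 5 differences lay between 0.11 (HIRD11) and 0.67 (ERD10), all above 0, with adjusted p of 0.64 or more, beside a median of 0.01 over all tested genes.

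The genes whose levels were most like each dehydrin were ranked by Pearson's r of log2(TPM + 1) over the 8 libraries among the 13726 genes whose mean reached 10 TPM in some group. The libraries share groups and depth, so r is a description. Few genes were like RAB18: 12 had an r above 0.9. The nearest were LEA4-5 (0.984) and LEA7 (0.975), late embryogenesis abundant proteins of other families, then AT3G17520 (0.959), AT3G02480 (0.954) and B ALPHA (AT1G51690, 0.946), a regulatory subunit of protein phosphatase 2A. LEA4-5, LEA7, AT3G17520 and AT3G02480 reached a mean of 10 TPM only in wild type at control. They thus entered the ranking through the group where RAB18 was high, and their likeness is no support for its pattern. LEA4-5 averaged 0.665 TPM in heated prp43a, 1.15 TPM in prp43a at control and 1.22 TPM in heated wild type, against 14.7 TPM in wild type at control. B ALPHA had the same order of groups as RAB18 over a far smaller range, with means between 23.4 and 27.5 TPM.

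ERD14 and XERO2 also had few genes like them, with 20 and 18 above 0.9. CHI (AT2G43570, 0.977), RING1 (0.975) and UGT84A3 (0.968) were nearest to ERD14. For XERO2 they were WES1 (0.947), which conjugates auxin to amino acids, PLA2A (0.937), a lipid acyl hydrolase, and PGIP1 (0.936), an inhibitor of fungal polygalacturonase. The other 3 dehydrins followed a split between heat and control that many genes showed. Above 0.9 there were 3443 genes for ERD10, with ATG18C, AT2G30550 and TCP9 nearest, each at 0.991. There were 4531 for COR47, with AT5G08660 (0.997), ARA-2 (0.996) and AT5G49210 (0.995) nearest. HIRD11 had 3261, and the nearest was LHY at 0.9999, a clock transcription factor that peaks at dawn, followed by AOAT2 (0.9995) and AT1G58602 (0.9993). LHY averaged 2.05 TPM in heated prp43a and 33.4 TPM in prp43a at control, against 1.82 TPM in heated wild type and 34.4 TPM in wild type at control. The hour of harvest is not given in the labels. Heat and a difference in the time of day thus cannot be told apart, for HIRD11 or in any other heat comparison here.

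Other genes of the same stress programmes were counted from lists. Of 21 further dehydration and cold genes, 6 fell in prp43a at control and 0 rose, where 0.0711% of all tested genes were called, with a median log2 fold change of -0.54 and 19 of 21 below 0. On the log2 scale LEA7 fell by 3.78 (limma adjusted p = 0.0038) and RD29B fell by 3.61 (limma adjusted p = 6e-04). AT3G02480 fell by 3.0 (limma adjusted p = 0.0053) and LEA4-5 fell by 2.87 (limma adjusted p = 0.0038). RD29B, a hydrophilic protein used as a marker of abscisic acid response, averaged 1.67 ± 0.486 TPM in prp43a at control, against 31.4 ± 4.65 TPM in wild type at control (SD, n = 2 each). Some of these 21 genes were known from earlier results of these data to be lower in prp43a, so their direction is not independent of the choice. LEA7, LEA4-5, AT3G02480 and AT3G17520 are also the genes ranked nearest to RAB18 above, so the list and the ranking are not separate evidence. The count of 6 was 1 without either prp43a control library, 3 without wild-type control replicate 1 or either heated wild-type library, and 0 in the fit of only the 4 control libraries. RD29B was called in 15 of 16 alternatives, LEA7 and LEA4-5 in 12 each, AT3G02480 in 11, P5CS1 in 8 and AT3G17520 in 3. After heat none of the 21 was called between genotypes.

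With heat, 8 of those 21 genes were called higher and 8 lower in prp43a (median -0.31), where 43.1% and 27.0% of all tested genes were. In wild type 7 were called higher and 13 lower (median -1.09), where 42.4% and 27.6% were. KIN1 and KIN2, a pair of close paralogs whose reads can be hard to assign, rose in prp43a by 3.93 and 3.70 and in wild type by 3.94 and 3.26 on the log2 scale (limma). RD29A, a hydrophilic protein with both ABRE and DRE in its promoter, rose by 2.60 in prp43a. In wild type LEA7 fell by 4.37 and AT3G02480 fell by 4.42. Only some called genes are named for each genotype, and a gene left unnamed in a genotype may have been called there too. In the test of the difference of the heat responses RD29B was the only one called, at 3.83 (SE 0.37, limma adjusted p = 0.013), and this call too was lost without any 1 of the 8 libraries.

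The abscisic acid core genes and the factors that act on dehydrins did not reach the threshold between genotypes. Of the 15 core genes in the list (phosphatases, kinases, and enzymes of synthesis and breakdown, with no receptors), 13 were tested. None of the 13 was called at control (median -0.24, 11 below 0) or after heat. Of 10 tested regulators (ABF, DREB2 and clock factors among them, 14 in the list), none was called at control (median -0.11, 9 of 10 below 0) or after heat. ABI3, CBF1, CBF2 and CBF3 did not pass the filter. With heat, 4 of the 13 core genes were called higher and 4 lower in prp43a, and 3 higher and 5 lower in wild type. Of the 10 regulators 4 were called higher and 4 lower in prp43a, and 3 higher and 4 lower in wild type. These counts are to be read against the 70.1% of all tested genes called with heat in prp43a and the 70.0% in wild type, to which the shares of both lists are near. DREB2B, a factor that binds the DRE, rose by 4.65 in prp43a and 4.45 in wild type, and DREB2A by 2.90 and 2.41, on the log2 scale (limma). LHY fell by 3.49 in prp43a and fell by 3.65 in wild type. CCA1, its partner in the clock, fell by 2.71 in prp43a and fell by 2.56 in wild type.

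**Figure D5:**
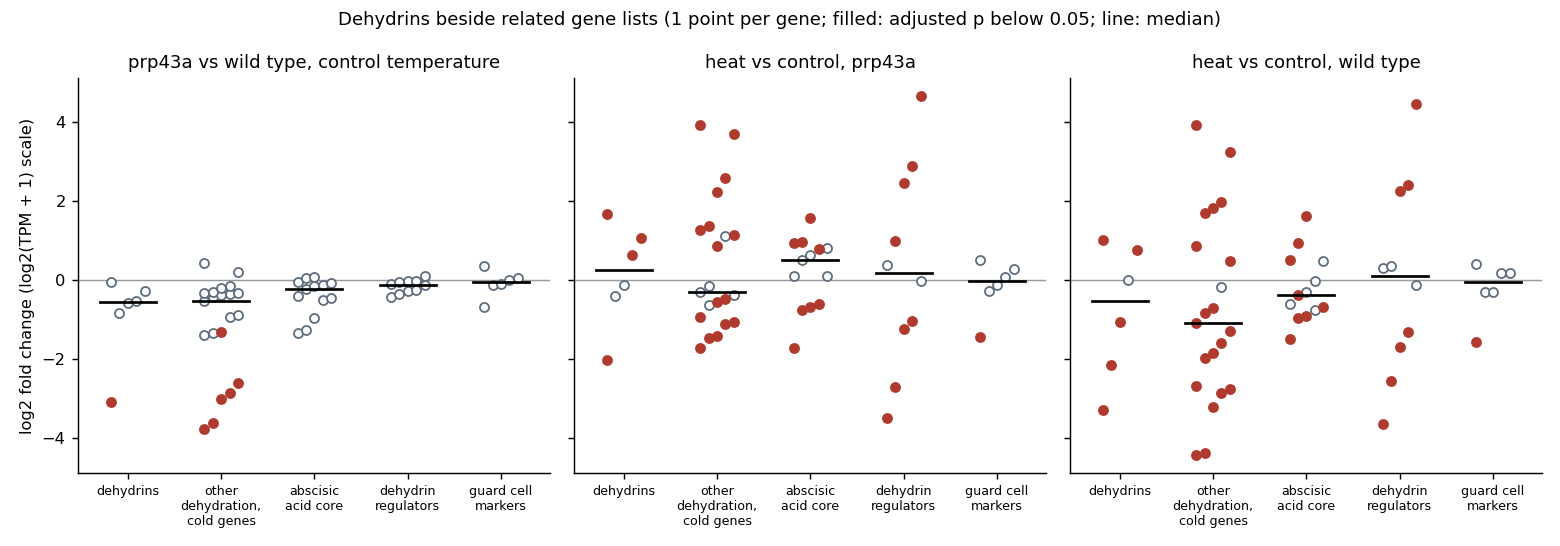
Log2 fold change on the log2(TPM + 1) scale of every tested gene in 5 lists (1 point per gene, filled where the limma adjusted p is below 0.05, line at the median), for prp43a against wild type at control and for heat against control in prp43a and in wild type. At control the filled points are RAB18 and 6 of the 21 other dehydration and cold genes, all below 0.

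Markers of other tissues were set beside RAB18, because the gene is also known from seeds and guard cells. None of 9 seed marker genes, storage and oil body genes among them, passed the filter. They summed to between 0.213 and 2.54 TPM in a library, with CRU3, CRU2, OLEO1 and SESA3 at 0 in all 8. The 6 guard cell markers summed to 207 and 215 TPM in prp43a at control, against 194 and 223 TPM in wild type at control, which overlapped, and none of the 6 was called there. At control 3 of the 6 lay above 0 and 3 below. They summed to 114.2 and 113.7 TPM in heated prp43a and 102 and 115 TPM in heated wild type, and CYP86A2 was the only one of the 6 called with heat in either genotype, lower in both. The control sums are mostly CYP86A2, at 153 and 167 TPM in prp43a and 143 and 163 TPM in wild type. After heat CYP86A2 had 52.9 and 64.9 TPM in prp43a and 47.0 and 55.7 TPM in wild type. The part of these 6 markers in the heat response of RAB18 was not tested.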

How the data were processed

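RNA was extracted from whole seedlings, made into libraries with a stranded mRNA kit and sequenced as 75-base read pairs, per the labels' protocols. The authors deposited 1 table of TPM values, with 1 column per library, and the submitters' processing notes name the build TAIR10. The aligner is not given in the sources used here, nor is the counting tool. From the deposited TPM, fold changes were computed on the log2(TPM + 1) scale, which understates changes of low genes, with limma 3.58.1 in R 4.3.3 (moderated test with trend, a mean per group, 8 libraries, 4 residual degrees of freedom). Genes had to reach 1 TPM in at least 2 libraries, and p-values were adjusted by Benjamini-Hochberg over all 19697 genes tested. Multiplied by RefSeq TAIR10.1 exon lengths, 99.2% of 126840 low TPM values were whole reads within 0.05, which gave the recovered reads. Labels do not say whether replicates came from separate growths, so p-values measure the spread between these libraries. With 2 libraries a group, a permutation test cannot reach 0.05.

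The 7 genes and the gene lists were chosen with earlier results of these data known. All 7 are described whatever their values. For likeness, the 5 genes nearest to RAB18 and the 3 nearest to each other tested dehydrin are named. From the lists of dehydration and cold genes and of regulators, values are given for up to 4 called genes with large changes per comparison. No gene of the abscisic acid core list is named. The alternatives were other pseudocounts and filters, median-of-ratios scaling, limma voom on recovered reads, fits of only the groups compared, the replicate number as a term, and leaving out each library. The procedure was tested on simulated data with an assumed, fixed spread between replicates, and no result above rests on that test.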

Additional observations from a re-analysis of the deposited data

Results flagged for a closer look

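RAB18 was the only dehydrin whose heat response differed between the genotypes by a test of the difference itself. The difference, prp43a minus wild type, was 3.18 on the log2(TPM + 1) scale (limma adjusted p = 0.013). Heated prp43a had 8.19 and 9.50 TPM and prp43a at control 11.7 and 7.91 TPM, against 7.04 and 9.75 TPM in heated wild type and 79.5 and 102 TPM in wild type at control. All 3 groups other than wild type at control overlapped. The call was lost whichever of the 8 libraries was left out, with differences between 2.92 and 3.43. No group held enough libraries for a test of single deviating samples.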

How the results depend on the processing

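ERD10, COR47 and HIRD11 kept their heat calls and directions in both genotypes, and RAB18 its fall in heated wild type, in all 16 alternatives. With only the 4 libraries compared, calls between genotypes at control dropped to 0 dehydrins and 0 genes, against 1 and 14 in the fit of all libraries, and after heat to 0 genes against 1; with no filter that number was 2. For the difference of the heat responses, a pseudocount of 0.1 and no filter each left 0 dehydrins and 0 genes, against 1 and 2, while a pseudocount of 5 gave 7 genes and a filter of 5 TPM gave 4. Replicate numbers did not pair the libraries (correlation of deviations -0.0276 to 0.0283), and with the number as a replicate block that count was 4 genes and no dehydrin call changed. Leaving out 1 library gave 3 to 48 genes between genotypes at control (48 without wild-type control replicate 2, 3 to 8 without any other library), with 1 to 2 dehydrins. The same fits gave 1 to 3 genes after heat (2 and 3 without prp43a heat replicates 1 and 2) and 0 dehydrins and 0 genes for the difference of the heat responses. Signs turned for small differences. These were COR47 after heat (-0.014) and ERD14 in wild-type heat (-0.27) under median-of-ratios scaling, and ERD14 in wild-type heat (-0.015) with voom. Among fits without 1 library, values spanned -0.12 to 0.028 for HIRD11 at control, -0.029 to 0.24 for ERD10, -0.086 to 0.14 for COR47 and -0.13 to 0.29 for RAB18 after heat, -0.37 to 0.14 for RAB18 and -0.81 to 0.0079 for XERO2 in prp43a heat, and -0.20 to 0.23 for ERD14 in wild-type heat. The cause of these changes was not tested. XERO1 and XERO2 are limited by depth, at 0 to 3 and 9 to 41 recovered reads a library.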

Other observations

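The genome holds further loci annotated as dehydrins, which add little to the totals above. AT4G38410 reached at most 1.40 TPM in a library and was not called in any of the 5 comparisons. AT2G21490 reached at most 0.425 TPM and did not pass the filter. AT4G39130 is listed at 0 in all 8 libraries.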
